A study of Oryza sativa Japonica Group with 6 samples.

Results

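The C and D class floral MADS genes of rice were read in the panicle transcriptomes of 187R and NIL-*hfr131*. They were 4 genes taken by identifier from the 42189 listed genes. The C class genes were *OsMADS3* (LOC_Os01g10504, chromosome 1) and *OsMADS58* (LOC_Os05g11414, chromosome 5), and the D class genes were *OsMADS13* (LOC_Os12g10540, chromosome 12) and *OsMADS21* (LOC_Os01g66290, chromosome 1). RNA was taken from young panicles before heading, with 3 libraries labelled as biological replicates for each line, and how many plants went into a library is not given in the sources used here. 187R is an *indica* restorer line with the *HFR131* allele and no introgression. NIL-*hfr131* is a near-isogenic line in the 187R background that carries the *hfr131* allele of *OsBRI1*, a brassinosteroid receptor gene, on a fragment of the long arm of chromosome 1 from the wild rice *Oryza longistaminata*. Both lines had the treatment label natural. The comparison is therefore between lines, and other genes on the introgressed fragment cannot be told apart from *hfr131*.

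In the model of floral organ identity, MADS-domain transcription factors act in combinations. C class factors specify stamens together with B class factors, specify carpels, and end the activity of the floral meristem, while D class factors specify ovules. E class (SEPALLATA) factors are their partners in protein complexes. Grasses carry duplicated C class genes, and in rice *OsMADS3* is known mainly for stamen identity and later anther development, *OsMADS58* for floral meristem determinacy and carpel formation, and *OsMADS13* for ovule identity. *OsMADS21* belongs to the D lineage by descent and is the less studied gene of this class.

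Levels are in TPM (length-corrected transcript shares), in which reads are divided by gene length and each library is scaled to the same total of 1000000, so levels can be compared between genes. TPM keeps no sequencing depth, so depth is unknown and the spread between libraries is the only measure of error. Log2 fold changes are differences of log2(TPM + 1), NIL-*hfr131* minus 187R, so a positive value is a higher level in NIL-*hfr131*. They come from limma fitted on the 21531 genes whose mean over the libraries was 1 TPM or more, with two-sided *P* values adjusted over all of these genes by the Benjamini-Hochberg method. Adding 1 understates the change of weakly expressed genes. All 4 C and D class genes passed the filter on low values.

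NIL-*hfr131* replicate 3 stood apart from the other libraries. Across genes, it correlated with the other 5 libraries at r = 0.916 to 0.937, compared with 0.982 to 0.991 among those 5 (Pearson, log2 values). The results of the C and D class genes are therefore also given without this library, as are those of other genes named with a fold change that moved by more than 1.5 times.

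The floral character of the tissue was visible in the MADS genes that act together with the C and D class. E class transcripts summed to 1274 to 1346 TPM in 187R and 1312 to 1348 TPM in NIL-*hfr131*, and B class transcripts to 755 to 1012 TPM and 843 to 1101 TPM. Late anther genes summed to 2737 to 3090 TPM in 187R and to 3778 to 4229 TPM in NIL-*hfr131*. A single gene of this list, *OsC6*, averaged 454 TPM in 187R and 1321 TPM in NIL-*hfr131*, so these sums do not show a rise across the list. Of the 7 listed carpel and floral meristem genes, *RFL* and *APO1* were close to the bottom of the scale, and *FON2* was listed at 0 in every library. The other 4 averaged from 15.2 TPM (*OsIDS1*) to 76.0 TPM (*DL*) over the 6 libraries. *RFL* was between 0.0487 and 0.237 TPM in all libraries, and *APO1* was listed at 0 in 5 libraries. The markers of mature pollen (*OsMADS62*, *OsMADS63* and *OsMADS68*) summed to at most 1.58 TPM, and the endosperm storage genes to at most 6.08 TPM, with *GluB1* listed at 0 in every library. Of the 3 green tissue markers, *CAB2R* was at 735 to 1280 TPM, *CAB1R* at 28.4 to 56.9 TPM and *RbcS* at 31.7 to 42.5 TPM.

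Of the C and D class genes, *OsMADS3* had the highest level, followed by *OsMADS58*, *OsMADS13* and *OsMADS21*, and this order held within each of the 6 libraries. *OsMADS3* was 2.40 to 3.47 times *OsMADS58*. *OsMADS13* was 3.43 to 6.16 times *OsMADS21*. The closest neighbours were *OsMADS58* and *OsMADS13*, with a ratio of 1.16 to 1.49 in 187R and 1.77 to 2.06 in NIL-*hfr131*. No neighbours in this order overlapped in level within either line. *OsMADS3* lay between the 89.2 and 93.6 percentiles of the tested genes, and *OsMADS21* between the 14.9 and 25.9 percentiles.

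**Figure D1:**
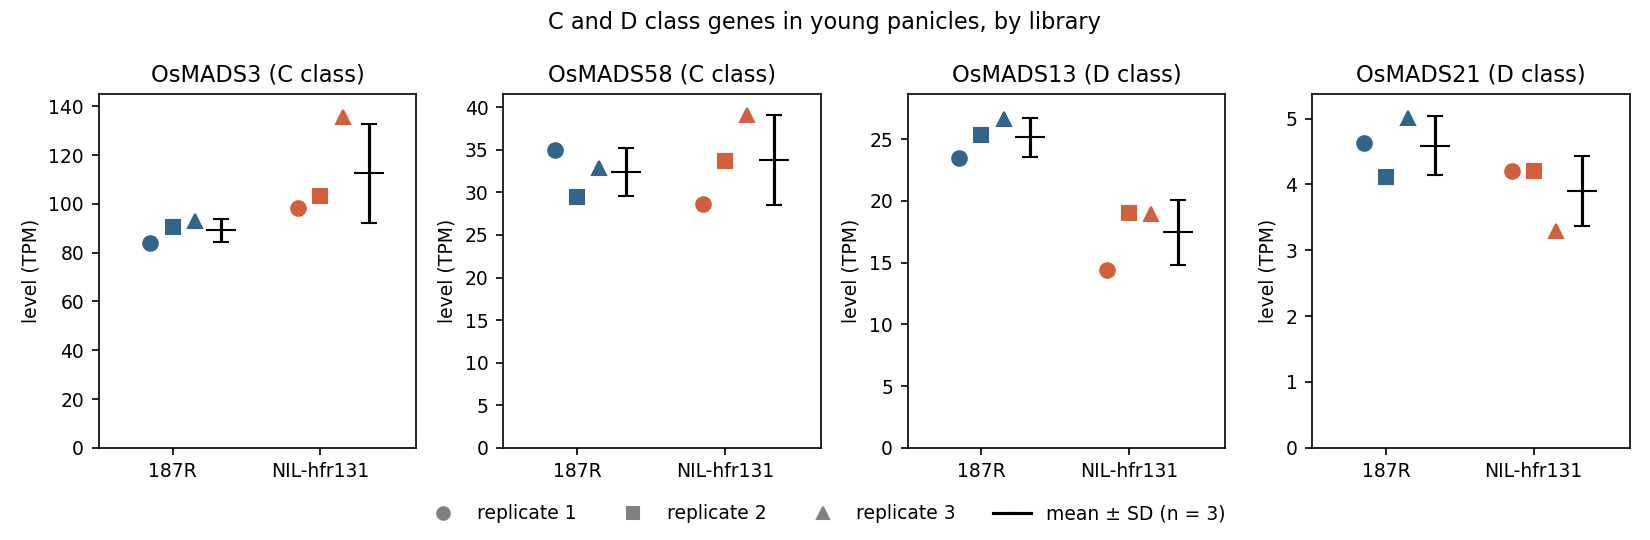
Level in TPM (vertical axes, each starting at 0) of the C and D class genes in the 3 libraries of 187R and the 3 libraries of NIL-*hfr131*; points are libraries, shaped by replicate, and the bars are the mean ± SD. The lines do not overlap for *OsMADS3*, which was higher in NIL-*hfr131*, or for *OsMADS13*, which was lower, and they overlap for *OsMADS58* and *OsMADS21*.

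None of the 4 genes passed an adjusted *P* of 0.05 with limma, against 0.307% of all tested genes. Without NIL-*hfr131* replicate 3, again 0 of the 4 passed, against 1.8%. At an unadjusted *P* of 0.05, 1 of the 4 passed (*OsMADS13*), where 8.36% of all tested genes did. The libraries of the lines did not overlap for 2 of the 4 genes, *OsMADS3* and *OsMADS13*, where 18.5% of all tested genes had no overlap. Without NIL-*hfr131* replicate 3 these counts were again 1 and 2 of the 4, where 14.8% of all genes tested in that fit passed unadjusted and 32.6% had no overlap. The median log2 fold change was -0.071 over the 4 genes and 0.052 over all tested genes. In this bulk tissue, a lower level can come from fewer cells of a type or from less RNA per cell, and these cannot be told apart.

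*OsMADS13*, the ovule identity gene, had the largest difference of the 4 genes. Its levels were 23.5, 25.3 and 26.6 TPM in replicates 1, 2 and 3 of 187R, compared with 14.4, 19.0 and 19.0 TPM in the same order in NIL-*hfr131*. Every NIL-*hfr131* library was below every 187R library, and the lowest value was in NIL-*hfr131* replicate 1, not in the library that stood apart. The mean was 25.1 ± 1.58 TPM in 187R and 17.5 ± 2.63 TPM in NIL-*hfr131* (SD, n = 3), which is 30.5% lower in NIL-*hfr131*. This gave a log2 fold change of -0.51 (standard error, SE, 0.15; 95% confidence interval -0.86 to -0.16; unadjusted p = 0.0109, adjusted p = 0.404, limma). By *P* value it ranked 581 of the 21531 tested genes, and the difference did not pass the correction. Without NIL-*hfr131* replicate 3 the log2 fold change was -0.57 (adjusted p = 0.0871, limma), the lowest adjusted *P* of *OsMADS13* over the alternatives. Over the alternatives the adjusted *P* ranged up to 0.904.

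*OsMADS21*, the other D class gene, was weakly expressed. Its level was 4.63, 4.12 and 5.01 TPM in replicates 1, 2 and 3 of 187R, compared with 4.20, 4.21 and 3.29 TPM in the same order in NIL-*hfr131*. Replicates 1 and 2 of NIL-*hfr131* lay within the range of 187R, and only replicate 3 was below it. The mean was 4.59 ± 0.450 TPM in 187R and 3.90 ± 0.530 TPM in NIL-*hfr131* (SD, n = 3). The log2 fold change of -0.19 (95% confidence interval -0.56 to 0.18; adjusted p = 0.694, limma) was within the spread between libraries, and it was -0.099 without NIL-*hfr131* replicate 3. The interval includes a difference as large as that of *OsMADS13*, so the 2 D class genes are not shown to differ in their response.

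*OsMADS3*, the C class gene tied to stamens, was at 84.0, 90.6 and 92.8 TPM in replicates 1, 2 and 3 of 187R, compared with 98.3, 103 and 136 TPM in the same order in NIL-*hfr131*. All NIL-*hfr131* libraries were above all 187R libraries, and the highest value was in NIL-*hfr131* replicate 3. The mean was 89.1 ± 4.61 TPM in 187R and 112 ± 20.3 TPM in NIL-*hfr131* (SD, n = 3), with a log2 fold change of 0.32 (SE 0.15, 95% confidence interval -0.030 to 0.67; adjusted p = 0.637, limma). The other 5 libraries gave 0.18 (adjusted p = 0.373, limma), so NIL-*hfr131* replicate 3 carried a large part of the difference.

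*OsMADS58*, the C class gene tied to determinacy of the floral meristem, was at 35.0, 29.4 and 32.9 TPM in 187R replicates 1, 2 and 3. In NIL-*hfr131* replicates 1, 2 and 3 it was at 28.6, 33.7 and 39.1 TPM. NIL-*hfr131* had both the lowest and the highest library, so the range of 187R lay within that of NIL-*hfr131*. The mean was 32.4 ± 2.82 TPM in 187R and 33.8 ± 5.24 TPM in NIL-*hfr131* (SD, n = 3), with a log2 fold change of 0.051 (95% confidence interval -0.30 to 0.41; adjusted p = 0.893, limma). The sign turned without NIL-*hfr131* replicate 3 (-0.057), without 187R replicate 2 and with quantile normalization, so no direction was measured for this gene.

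**Figure D2:**
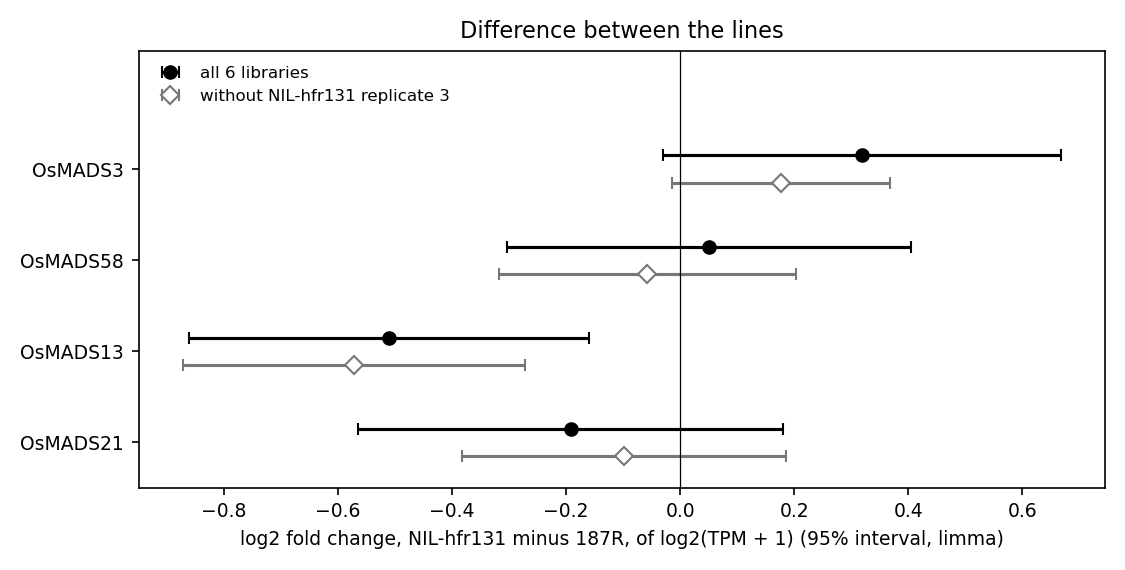
Log2 fold change of each C and D class gene between the lines (horizontal axis, NIL-*hfr131* minus 187R, on the log2(TPM + 1) scale) with its 95% confidence interval from limma, over all 6 libraries (filled circles) and without NIL-*hfr131* replicate 3 (open diamonds). The interval of *OsMADS13* lies below 0 in both fits before correction for the number of genes, and the intervals of the other 3 genes include 0.

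The balance between the classes was then compared within each library, which removes a factor common to all 4 genes. The summed level of the D class was 28.1 to 31.6 TPM in 187R and 18.6 to 23.2 TPM in NIL-*hfr131*, and that of the C class was 119 to 126 TPM and 127 to 175 TPM. D class transcripts made up 19.1%, 19.7% and 20.1% of the transcripts of the 4 genes in 187R replicates 1, 2 and 3, and 12.8%, 14.5% and 11.3% in NIL-*hfr131* replicates 1, 2 and 3. The share was lower in every NIL-*hfr131* library than in any 187R library. The log2 ratio of the D class sum to the C class sum, with 1 added to each, was -2.00 ± 0.044 in 187R and -2.71 ± 0.20 in NIL-*hfr131* (SD, n = 3), a difference of -0.71 (two-sided exact permutation test, p = 0.1). This is the smallest *P* value that 3 against 3 libraries can give, and the design cannot reach 0.05. Leaving out each library in turn gave differences of -0.81 to -0.61. *OsMADS13* holds most of the D class sum and *OsMADS3* most of the C class sum, so the ratio follows these genes.

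Within the C class, the log2 ratio of *OsMADS58* to *OsMADS3* was -1.24, -1.59 and -1.47 in 187R replicates 1, 2 and 3. In NIL-*hfr131* replicates 1, 2 and 3 it was -1.75, -1.59 and -1.77. The ranges met at replicate 2 of each line. The difference of -0.27 had a *P* value of 0.2 (two-sided exact permutation test, 3 against 3 libraries), so a shift within the C class was not shown. Adjusted over the 2 ratios by the Benjamini-Hochberg method, both *P* values were 0.2.

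**Figure D3:**
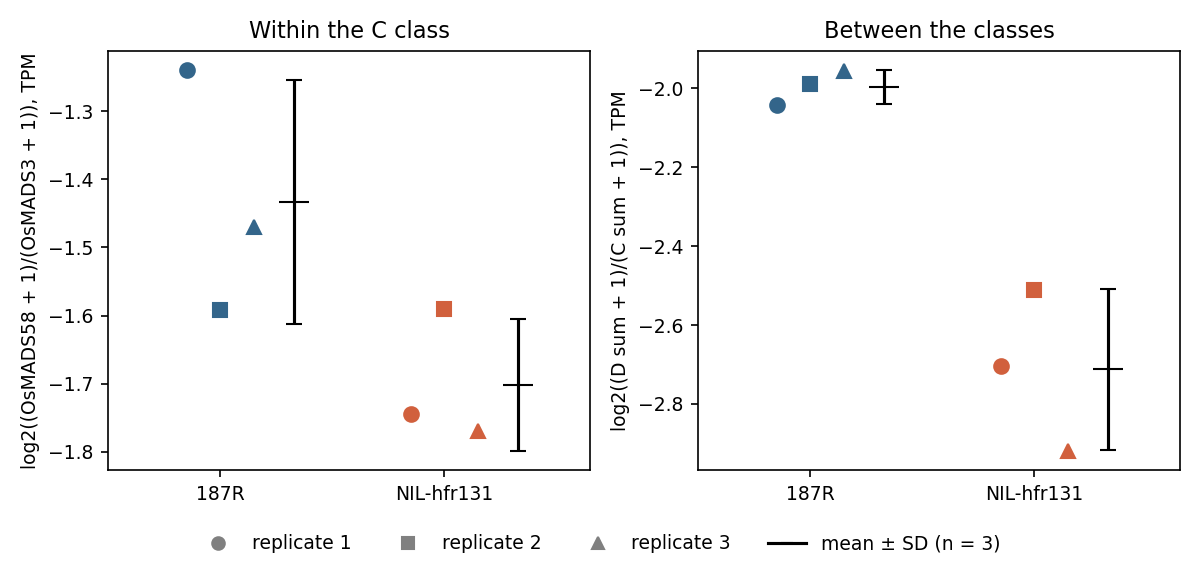
Log2 ratio of *OsMADS58* to *OsMADS3* (left) and of the summed D class to the summed C class level (right) in each library of 187R and NIL-*hfr131*, computed from TPM with 1 added; the vertical axes do not start at 0, points are libraries and bars the mean ± SD. The D to C ratio lies between -2.04 and -1.96 in 187R and between -2.92 and -2.51 in NIL-*hfr131*, whereas the ranges of the ratio within the C class meet at -1.59.

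The A, B, E and AGL6-like MADS genes, which act with the C and D class in the flower, gave the context for these values. Of 14 listed genes, 13 were tested (*OsMADS20* was below the filter), and 0 passed an adjusted *P* of 0.05 with limma. Their median log2 fold change was 0.0056, with a range of -0.35 to 0.35. At an unadjusted *P* of 0.05, 1 passed, where 8.36% of all tested genes did. Without NIL-*hfr131* replicate 3, 3 passed as higher and 1 as lower in NIL-*hfr131*, which is read against the 14.8% of all genes that passed in that fit. The gene that passed over all libraries was *OsMADS34*, an E class gene of panicle and spikelet meristems, at 73.6 ± 1.44 TPM in 187R and 57.7 ± 8.47 TPM in NIL-*hfr131* (SD, n = 3; log2 fold change -0.35, adjusted p = 0.554, limma, and -0.23 without NIL-*hfr131* replicate 3). *OsMADS1*, the E class gene of lemma and palea identity, was at 560 ± 19.7 TPM in 187R and 562 ± 12.8 TPM in NIL-*hfr131*, a log2 fold change of 0.0056 with a 95% confidence interval of -0.22 to 0.23 (0.024 without NIL-*hfr131* replicate 3). *OsMADS16*, the B class partner of the C class in stamens, was at 578 ± 129 TPM in 187R and 729 ± 97.4 TPM in NIL-*hfr131*. Its ranges overlapped over all libraries (log2 fold change 0.35, adjusted p = 0.684, limma) but not without NIL-*hfr131* replicate 3 (0.46, adjusted p = 0.258, limma). Without that library, 32.6% of all genes had no overlap. Over all libraries, the log2 fold change of -0.51 of *OsMADS13* was outside the range of these 13 genes, and that of *OsMADS3* (0.32) was inside it.

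Genes of the carpel and of the ovule were set beside *OsMADS13*. *DL*, a YABBY gene that specifies the carpel, was at 76.8 ± 10.8 TPM in 187R and 75.2 ± 9.29 TPM in NIL-*hfr131* (SD, n = 3), with a log2 fold change of -0.027 (95% confidence interval -0.38 to 0.33), or 0.048 without NIL-*hfr131* replicate 3. The B sister MADS genes, a lineage expressed in ovules and seeds, had log2 fold changes below 0 in 3 of 3 genes. Of all 21531 tested genes, 9129 were below 0. The median of the B sister genes was -0.33, and 0 passed an adjusted or an unadjusted *P* of 0.05 (limma). *OsMADS29*, known for its role in the degradation of maternal tissue in the seed, was at 1.34, 1.67 and 2.21 TPM in 187R and 0.917, 1.01 and 1.21 TPM in NIL-*hfr131*. These levels are close to the filter of 1 TPM. The log2 fold change of *OsMADS29* with 1 added was -0.41. Its mean TPM was 39.9% lower in NIL-*hfr131*, a larger drop than the 30.5% of *OsMADS13*. *OsMADS31* was at 8.73 ± 1.20 TPM in 187R and 6.73 ± 0.648 TPM in NIL-*hfr131* (log2 fold change -0.33, adjusted p = 0.644, limma). *OsMADS29* and *OsMADS31* did not overlap between the lines, and *OsMADS30* did, where 18.5% of all tested genes had no overlap. Without NIL-*hfr131* replicate 3, 2 of the 3 B sister genes passed an unadjusted *P* of 0.05, both lower in NIL-*hfr131*, where 14.8% of all genes passed, and 0 passed an adjusted *P* of 0.05 (limma). The tested genes of the floral meristem overlapped between the lines over all libraries, but *FON1* did not without NIL-*hfr131* replicate 3, where 32.6% of all genes had no overlap. *FON1*, a receptor kinase gene that limits the floral meristem, had a log2 fold change of -0.15 (95% confidence interval -0.44 to 0.14), and -0.20 without that library. *SNB* and *OsIDS1*, AP2-type genes of spikelet development, had 0.081 and 0.14, and 0.022 and 0.081 without it.

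Late anther genes were the only list with a gene past the adjusted threshold, and their values are given beside *OsMADS3* because that gene is expressed in anthers. Of 9 genes, 1 was higher and 0 were lower in NIL-*hfr131* at an adjusted *P* of 0.05 (limma), where 0.307% of all tested genes passed. At an unadjusted *P* of 0.05, 3 were higher and 0 lower, where 8.36% of all tested genes passed. Without NIL-*hfr131* replicate 3, the unadjusted counts were 5 and 0, where 14.8% of all genes passed. The median log2 fold change of the list was 0.31, and 7 of the 9 genes were above 0, where 12402 of all 21531 tested genes were. *OsC6*, a lipid transfer protein gene of the developing anther, rose from 454 ± 48.9 TPM in 187R to 1321 ± 95.7 TPM in NIL-*hfr131* (SD, n = 3; log2 fold change 1.54, SE 0.12, adjusted p = 0.00695, limma). Over the 5 libraries without NIL-*hfr131* replicate 3 it was 1.60. *WDA1*, a gene of wax synthesis in the anther wall, was at 213 ± 13.4 TPM in 187R and 351 ± 111 TPM in NIL-*hfr131* (log2 fold change 0.68, adjusted p = 0.457, limma), and its log2 fold change was 0.43 (adjusted p = 0.0749) without NIL-*hfr131* replicate 3. *GAMYB*, a gibberellin-related MYB gene of the tapetum, was at 12.2 ± 4.99 TPM and 20.9 ± 3.63 TPM. In contrast, *TDR*, a bHLH gene of the tapetum, was at 205 ± 12.8 TPM in 187R and 178 ± 19.6 TPM in NIL-*hfr131*. *CYP703A3* and *CYP704B2*, cytochrome P450 genes of pollen wall precursors, and *DPW*, a fatty acyl reductase gene of the pollen wall, overlapped between the lines. Their log2 fold changes were -0.079, 0.15 and 0.27, and 0.082, 0.28 and 0.16 without NIL-*hfr131* replicate 3. *CYP704B2* did not overlap without that library, where 32.6% of all genes had no overlap. The part of anther content or developmental stage in the levels of *OsMADS3* and *OsMADS13* was not tested.

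**Figure D4:**
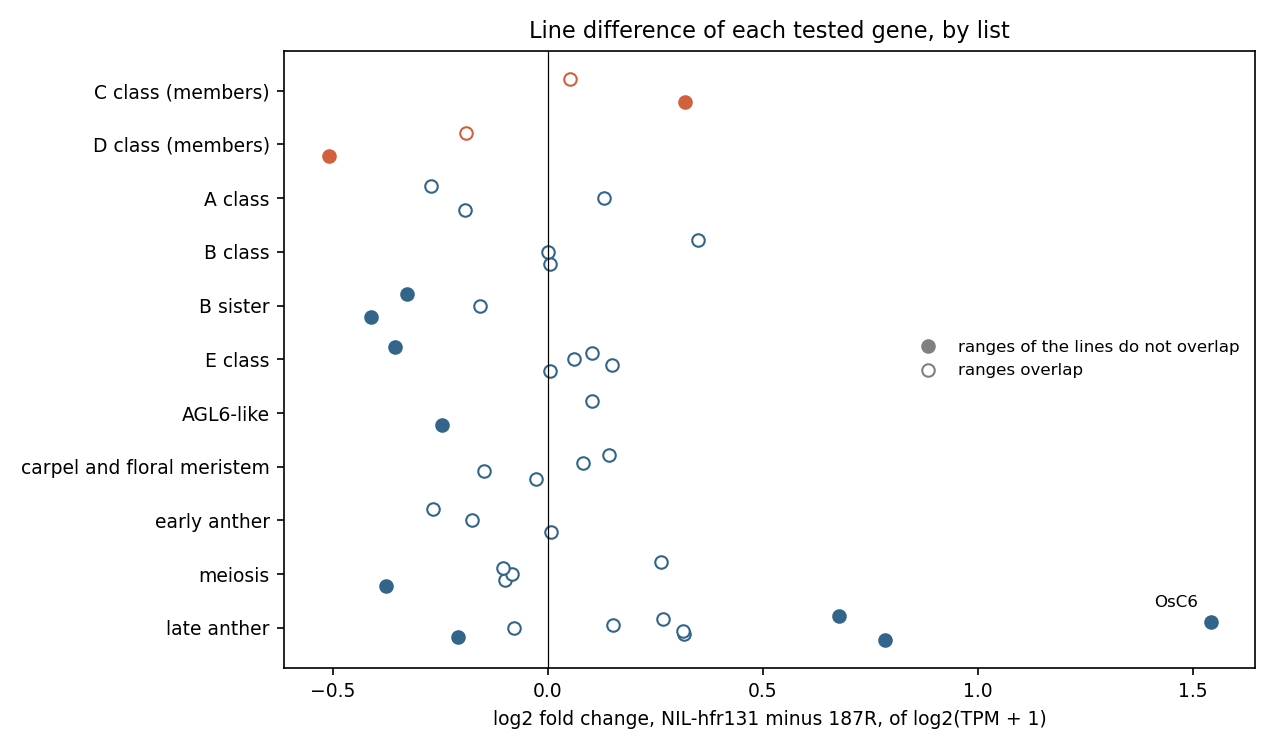
Log2 fold change (horizontal axis, NIL-*hfr131* minus 187R, on the log2(TPM + 1) scale) of each tested gene of the C and D class and of the other floral and anther lists, 1 row per list and 1 circle per gene; filled circles mark genes whose libraries do not overlap between the lines, and the vertical offset within a row has no meaning. *OsMADS13* at -0.51 is the lowest value drawn on this scale, on which adding 1 shrinks the change of weakly expressed genes such as *OsMADS29*. *OsC6* at 1.54, the labelled gene, is the only gene drawn with an adjusted *P* under 0.05.

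The patterns over the libraries were compared by the Pearson correlation of log2(TPM + 1) between each of the 4 genes and the 46 other tested genes of the lists and *OsBRI1*. These are descriptions over 6 libraries of 2 lines, in which the libraries of a line share its background and NIL-*hfr131* replicate 3 weighs heavily. *OsMADS13* was most like the B sister genes *OsMADS29* (r = 0.89) and *OsMADS31* (r = 0.76). Without NIL-*hfr131* replicate 3, *MSP1*, a receptor kinase gene that limits the number of sporocytes, came first (r = 0.94) and *OsMADS29* second (r = 0.89). *OsMADS3* was most like *WDA1* and *OsBRI1* (both r = 0.96) over 6 libraries and most like *OsMADS4* (r = 0.92) and *OsC6* (r = 0.90) over the 5 others. *OsMADS58* was most like *OsIDS1* (r = 0.85) and *SNB* (r = 0.81), and without that library it was most like the A class genes *OsMADS18* (r = 0.95) and *OsMADS14* (r = 0.90). *OsMADS21* was most like *TDR* (r = 0.95) and *CAB2R* (r = 0.86), and without that library *ZEP1* (r = 0.91), a gene of the synaptonemal complex, came before *TDR* (r = 0.82). The gene nearest in pattern thus changed for all 4 genes when this library was left out. The C class genes had a correlation of 0.58 with each other over 6 libraries and -0.27 over 5, and the D class genes had 0.46 and 0.54.

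*OsBRI1* itself was at 63.0 ± 4.02 TPM in 187R and 85.9 ± 27.3 TPM in NIL-*hfr131* (SD, n = 3; log2 fold change 0.40, adjusted p = 0.685, limma, and 0.15, adjusted p = 0.466, without NIL-*hfr131* replicate 3). NIL-*hfr131* replicate 3 was 1.67 times the mean of the other NIL-*hfr131* libraries. The same ratio was 1.35 for *OsMADS3*, 1.26 for *OsMADS58*, 1.14 for *OsMADS13* and 0.782 for *OsMADS21*. TPM values hold no allele information, so *OsBRI1* is no check of the line labels.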

How the data were processed

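Messenger RNA of young panicles was sequenced for the authors by a company on an MGISEQ-2000 platform. Each library's title gives 187R, wild type or mutant, and the replicate. The mutant libraries were taken as NIL-*hfr131* from the description in the paper. The authors deposited TPM values per gene and library. Each of the 6 libraries summed to 1000000, although the methods name FPKM. The aligner, genome build, annotation and test for differential expression are not given in the sources used here. The organism label names *japonica* rice, whereas 187R is an *indica* line, and reads lost to sequence differences were not analysed here. Neither were reads shared between similar MADS genes.

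Genes averaging 1 TPM or more were kept, 1 was added, and log2 values were fitted with limma 3.58.1 in R 4.3.3, with the line as the only term and a variance prior that followed the mean level (trend = TRUE). The script was tested on simulated data. Ratios were compared by exact permutation tests (SciPy 1.17.1), and figures were drawn with matplotlib 3.10.9 from tables made with pandas 2.3.3. The alternatives left out each library, used the replicate number as a block, scaled by quantile normalization or by median-of-ratios factors, held the variance prior constant, added 0.1 in place of 1, or set the filter at 5 TPM or at none. All 4 C and D class genes were named, with the list genes that passed the adjusted threshold and up to 4 of the highest in a list. The other list genes were paired with identifiers from general knowledge, which no table used here could check. The names of the 4 genes were each found once among RefSeq synonyms, on the chromosome given in the identifier. Genes most like each of the 4 in pattern were named by correlation. *GAMYB*, *RFL*, *APO1*, and the values of *WDA1* and *TDR*, were added after their values were seen. The genes and lists were chosen with earlier results of these data known. No sequences are shown.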

Additional observations from a re-analysis of the deposited data

How the results depend on the processing

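The log2 fold changes of *OsMADS3*, *OsMADS13* and *OsMADS21* kept their sign, and none passed the adjusted threshold, under every alternative run. *OsMADS13* ranged from -0.60 to -0.39, *OsMADS3* from 0.18 to 0.41 and *OsMADS21* from -0.26 to -0.099. With a minimum mean TPM of 5, *OsMADS21* was removed by the filter and has no value. *OsMADS58* changed sign with quantile normalization (-0.017), and leaving out each library in turn gave -0.057 to 0.16. The D to C class ratio and the ratio within the C class kept their sign in all 7 alternatives run for them. The number of genes that differed between the lines was 66. Leaving out each library in turn gave 13 to 384, where 384 was without NIL-*hfr131* replicate 3. With the replicate number as a block it was 16, with 0 of the 4 genes among them and an adjusted p of 0.725 for *OsMADS13* (limma). Same-numbered libraries had correlations of their deviations from the line mean of -0.21, 0.060 and 0.090. NIL-*hfr131* replicate 3 weighs heavily in the mean of its line, so these values cannot decide whether the number pairs the libraries. Without NIL-*hfr131* replicate 3, an alternative chosen after seeing the data for the other lists, 1 gene of these lists passed, as with all libraries. TPM without depth sets no limit of detection for *OsMADS21* or other weakly expressed genes.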

Other observations

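Among the 8 genes of early anther development and of meiosis, 4 were lower in NIL-*hfr131* replicates 1 and 2 than in every 187R library. Of all genes tested without NIL-*hfr131* replicate 3, 19.6% were lower in this way, and 32.6% had no overlap in either direction. NIL-*hfr131* replicate 3 was above the other libraries of its line for 6 of the 8, where it was for 11814 of all 21531 tested genes. *MEL1*, an Argonaute gene of germ cells, was at 12.4 ± 0.447 TPM in 187R (SD, n = 3) and at 8.78, 7.75 and 15.2 TPM in NIL-*hfr131* replicates 1, 2 and 3. *MSP1* was at 22.2 ± 0.889 TPM in 187R and at 17.4, 17.7 and 35.7 TPM in NIL-*hfr131* replicates 1, 2 and 3. *PAIR2*, a gene of homologous chromosome pairing, was at 20.7 ± 0.556 TPM in 187R and at 15.3, 13.2 and 19.1 TPM in NIL-*hfr131* replicates 1, 2 and 3. Its lines did not overlap, where 18.5% of all tested genes had no overlap. *ZEP1* was the other of the 4 genes. The remaining genes, *UDT1*, *OsDMC1A*, *OsDMC1B* and *OsREC8*, overlapped between the lines with and without NIL-*hfr131* replicate 3. Their log2 fold changes were -0.18, -0.083, -0.11 and 0.26, and -0.030, 0.057, -0.13 and 0.052 without that library. Of the 8 genes, 0 passed an adjusted *P* of 0.05 with limma, and 1 passed an unadjusted *P* of 0.05, where 8.36% of all tested genes did. With NIL-*hfr131* replicate 3 removed, 4 passed unadjusted, all lower in NIL-*hfr131*, where 14.8% of all genes passed.

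*OsMADS3* and *OsMADS21* lie on chromosome 1, the chromosome of *OsBRI1*. Locus numbers rise along a chromosome, and that of *OsMADS21* is 14240 above that of *OsBRI1*, on the side towards the end of the long arm. Among the 119 tested genes within 1000 locus numbers of *OsMADS21*, 0 passed an adjusted *P* of 0.05 and 8 passed unadjusted (limma). Their median log2 fold change was 0.048. Of all tested genes, 0.307% passed adjusted and 8.36% unadjusted. Around *OsMADS3*, 0 of 103 tested neighbours passed adjusted and 12 passed unadjusted, with a median of 0.0074. Around *OsMADS13* on chromosome 12, 0 of 31 tested neighbours passed adjusted and 2 passed unadjusted, with a median of 0.11. Without NIL-*hfr131* replicate 3, 2 neighbours of *OsMADS3*, 1 of *OsMADS13* and 0 of *OsMADS21* passed adjusted (limma), where 1.8% of all genes did. Which of these loci carry wild-rice alleles was not analysed here.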
